A study of Mus musculus with 16 samples.

Results

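DNA methylation was followed at 9 genes of the blood lineage in fibroblast lines: Tal1, Gata2, Cd34, Spi1, Ikzf1, Gata3, Pax5, Ptprc and Vav1. Their CpGs were all those of the deposited series table that lie between 2 kb upstream of the gene start and the gene end (GENCODE M21, mm10), 1240 of the 1203687 CpGs of the table. Gata3 held 285 of these CpGs, Gata2 213, Pax5 188, Tal1 172, Ikzf1 164, Spi1 92, Ptprc 63, Vav1 49 and Cd34 14. A CpG entered that table when each of the 16 libraries covered it with 10 reads or more, so the captured regions and the depth set which parts of each gene could be seen. The genes were chosen as silent in fibroblasts, but no expression values were analysed here and their silence was not checked.

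Blood cells arise through transcription factors that act in a set order. Tal1 and Gata2 encode factors that found and maintain haematopoietic stem and progenitor cells, and Cd34 encodes a surface sialomucin of these progenitors. Spi1 encodes PU.1, an ETS factor of myeloid and B cell development, Ikzf1 encodes the lymphoid zinc finger factor Ikaros, Gata3 a factor of T cell development and Pax5 the factor of B cell commitment. Ptprc encodes CD45, a tyrosine phosphatase on the surface of nearly all nucleated blood cells, and Vav1 a guanine nucleotide exchange factor that acts below antigen receptors. In other tissues such genes are usually kept off by Polycomb proteins at CpG-dense starts, where the DNA is often unmethylated, or by methylation of the start itself, and Cd34, Gata2 and Gata3 are also known from tissues other than blood.

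The libraries came from target capture bisulfite sequencing of mouse embryonic fibroblasts (MEFs), in which captured DNA is converted so that methylated and unmethylated cytosines are read apart. The MEFs were made from sibling C57BL/6J embryos at stage E13.5, a male (MEF-1) and a female (MEF-2), and immortalised by serial passaging with no treatment or engineered allele in the groups used here. Each family had 1 parental library and 7 libraries of clonal lines, each line being 1 clone grown from a single sorted cell. With 1 embryo per family, embryo, sex and culture history cannot be told apart in any difference between families, and the p-values measure the spread between clonal lines of 1 culture.

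The 16 libraries held between 59243669 and 90633091 methylation calls, with a median of 26 to 39 reads per CpG of the table. MEF-1 lines 1, 4 and 5 were closer to each other than other lines were. The chi-square distance per CpG was 2.74 to 2.94 for their 3 pairs, 3.66 to 5.53 for the 18 other MEF-1 pairs and 4.45 to 6.63 for the 21 MEF-2 pairs, and no library was a copy of another. Read depth relative to the median MEF-2 line lay within 0.15 of 1 over the 9 genes, with 6 exceptions. These were Spi1 and Ikzf1 in MEF-1 line 6 (0.711 and 0.775), Vav1 in MEF-1 line 1 (0.715), Cd34 in MEF-1 line 7 (0.824), and Spi1 and Gata3 in MEF-2 line 3 (0.748 and 0.768). The part of these depths in the results was not tested. Values without single lines are given where they end the call of a promoter, a body or a block of the 9 genes described here.

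Stretches of Spi1, Ikzf1 and Pax5 that carry clear differences between the families are printed first, each 300 bases long, read 5′ to 3′ on the strand of its gene from GRCm38 (the sequence of mm10). Capitals mark the CpGs whose levels were called different between the families, and all other bases are in lower case. The Spi1 stretches, at chr2:91100929-91101228 and chr2:91113035-91113334 on the plus strand, are shown because they differ in opposite directions within 1 gene. The Ikzf1 stretch lies at chr11:11693831-11694130 on the plus strand and holds the intron block with the largest difference of that gene. The Pax5 stretch, at chr4:44710659-44710958 on the minus strand, lies just upstream of the gene start.
Spi1 block 7: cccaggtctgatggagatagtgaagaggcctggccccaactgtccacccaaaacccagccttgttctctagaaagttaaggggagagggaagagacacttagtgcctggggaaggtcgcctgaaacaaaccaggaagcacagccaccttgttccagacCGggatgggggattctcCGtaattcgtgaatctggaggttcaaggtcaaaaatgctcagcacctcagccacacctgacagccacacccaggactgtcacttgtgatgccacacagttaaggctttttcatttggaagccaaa
Spi1 block 10: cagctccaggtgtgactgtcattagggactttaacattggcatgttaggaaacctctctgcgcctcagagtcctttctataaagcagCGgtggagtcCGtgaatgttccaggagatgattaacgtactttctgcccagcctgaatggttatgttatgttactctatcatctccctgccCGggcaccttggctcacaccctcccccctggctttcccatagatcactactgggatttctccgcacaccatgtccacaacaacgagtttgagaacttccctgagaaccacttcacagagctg
Ikzf1 block 8: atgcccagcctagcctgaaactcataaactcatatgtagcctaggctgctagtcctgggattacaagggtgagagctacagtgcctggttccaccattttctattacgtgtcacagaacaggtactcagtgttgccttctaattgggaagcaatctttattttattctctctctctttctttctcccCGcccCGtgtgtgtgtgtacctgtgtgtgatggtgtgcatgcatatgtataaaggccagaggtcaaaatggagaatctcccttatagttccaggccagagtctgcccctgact
Pax5 block 2: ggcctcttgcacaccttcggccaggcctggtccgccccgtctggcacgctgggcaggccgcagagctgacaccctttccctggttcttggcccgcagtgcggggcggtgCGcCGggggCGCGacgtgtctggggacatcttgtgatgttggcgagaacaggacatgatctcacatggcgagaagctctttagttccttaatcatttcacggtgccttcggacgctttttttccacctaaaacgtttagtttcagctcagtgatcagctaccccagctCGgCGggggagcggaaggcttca
In the Spi1 block 7 stretch 4 CpGs were measured and 2 were called, both higher in MEF-1, whereas in the Spi1 block 10 stretch 6 were measured and 3 were called, all 3 higher in MEF-2. Of the 3 CpGs of the Ikzf1 stretch 2 were called, both higher in MEF-1. The Pax5 stretch held 21 measured CpGs, with 6 called higher in MEF-2.

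Across the 9 genes, 331 CpGs (26.7%) were called different between the families, against 20.2% of all CpGs of the table. A CpG was called when the adjusted p of a quasi-binomial logistic model of its reads in 7 against 7 lines was under 0.05. The level was higher in MEF-1 at 205 of them (16.5% of the members, 11.6% of the table) and higher in MEF-2 at 126 (10.2%, against 8.53%). Gata3 alone gave 100 of the 205 CpGs higher in MEF-1. Without Gata3, 227 of 955 CpGs were called (23.8%), 105 higher in MEF-1 and 122 higher in MEF-2. The 30 called CpGs at least 80 points apart were 2.42% of the members, against 0.729% of the table, and 22 of these 30 lay in Gata3.

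Neighbouring CpGs were then read together as blocks, runs of at least 3 CpGs with gaps of at most 200 bp, whose level was the share of methylated among all reads. The 9 genes held 95 blocks, of which 46 (48.4%) were called, close to the 48.6% of all blocks. Of the 46, 31 were higher in MEF-1 (67.4%, against 61.5% of all called blocks). The call held in 41 of these 46 blocks whichever single line was left out. Without MEF-1 lines 1, 4 and 5, 31 blocks were called (37.7% of all blocks), each of them among the 46, and 233 CpGs (14.1% of the table). In 11 blocks (11.6%) a call came with a difference of at least 20 points in favour of MEF-1, against 8.52% of all blocks, and in 2 blocks (2.11%) in favour of MEF-2, against 4.35%. The lines of one family did not overlap with those of the other in 18 blocks (18.9%), against 21.5% of all blocks.

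**Figure D1:**
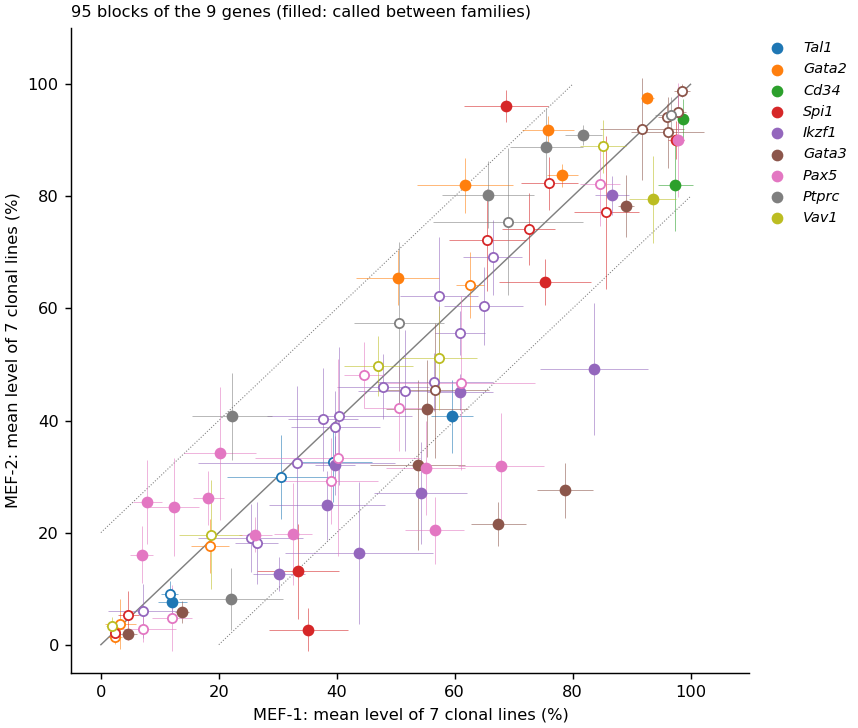
Mean methylation level of each of the 95 blocks in the 7 MEF-1 clonal lines (x axis, percent) and in the 7 MEF-2 clonal lines (y axis, percent), coloured by gene, with the 46 called blocks filled and thin bars for the SD over 7 lines. The solid line marks equal levels and the dotted lines a difference of 20 points. Blocks far below the diagonal are higher in MEF-1, such as Gata3 block 5 at 67.4% against 21.5%, and Spi1 block 10 lies far above it at 68.7% against 96.2%.

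Promoter windows ran from 2 kb upstream to 500 bp after the gene start, and bodies from there to the gene end. Of 7 promoters with at least 3 CpGs, 3 were called, where 43.2% of all promoters were, with Gata3 higher in MEF-1 and Gata2 and Pax5 higher in MEF-2. Each of these 3 windows held called CpGs of both directions, and the direction at Gata2 rests on 1 CpG, described below. Of the 9 bodies 7 were called, where 47.8% of all bodies were, with those of Tal1, Cd34, Spi1, Ikzf1 and Gata3 higher in MEF-1 and those of Gata2 and Ptprc higher in MEF-2. Over the clonal lines of both families, Gata2 stood at the 95.6 percentile of all promoters and Ptprc at the 92.2 percentile, Ikzf1 at 79.7, Vav1 at 64.6, Pax5 at 63.6, Tal1 at 51.8 and Gata3 at 45.0. The median of all promoters stood at 13.0% (quartiles 3.83 and 33.5%). The level of a window is that of its measured CpGs, which for Gata2 all lie at -750 bp or further upstream of the start and for Vav1 are only 3.

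**Figure D2:**
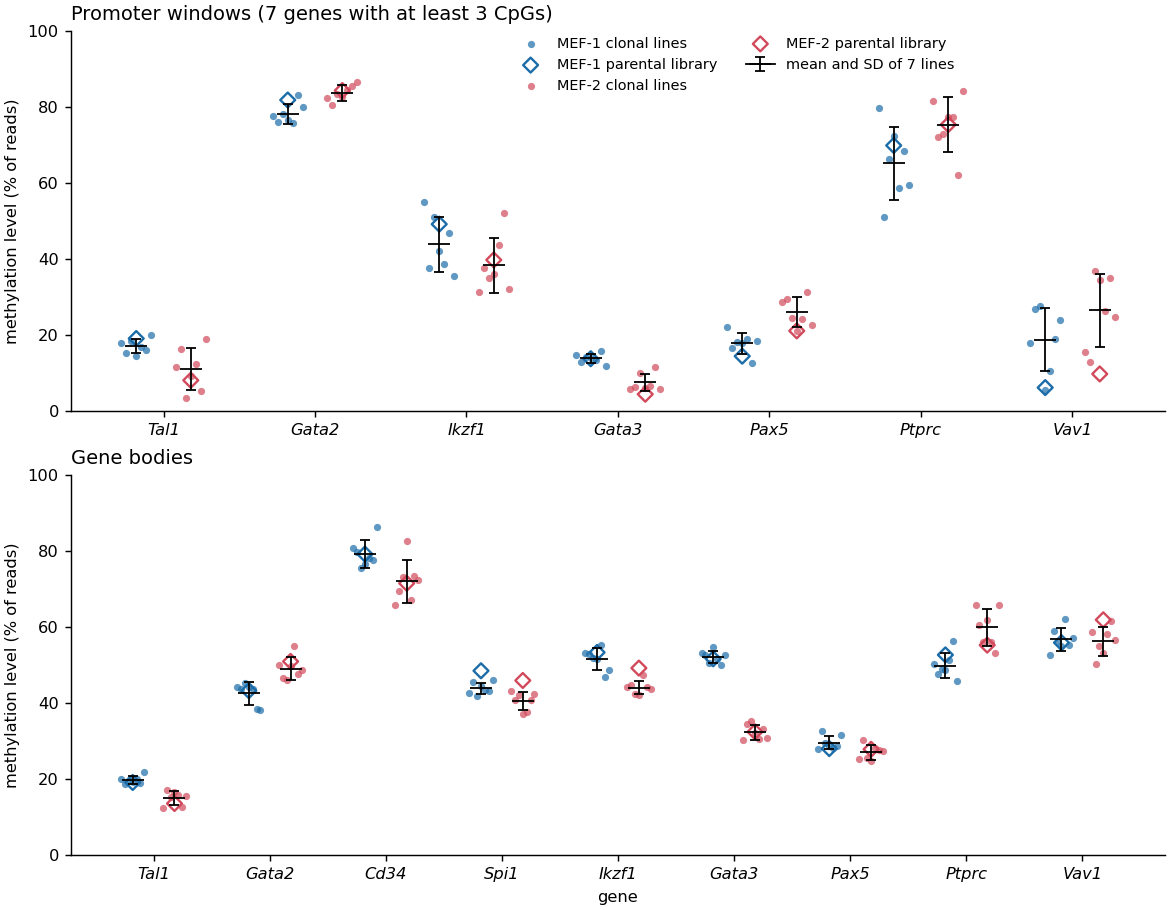
Methylation level (percent of reads) of the promoter window (upper panel) and of the gene body (lower panel) in every library, with a point per clonal line, bars for the mean and SD of 7 lines, and a diamond for the parental library. The Gata3 body stands apart between families, at 50.0 to 54.7% in the MEF-1 lines and 30.3 to 35.3% in the MEF-2 lines, while the Vav1 bodies overlap.

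Tal1 (chr4:115056426-115071755, plus strand), the basic helix-loop-helix factor without which no blood forms, was low in both families over its body and the dense block at its starts. Its body of 159 CpGs stood at 18.5 to 21.7% in the MEF-1 lines (median 19.8%) and at 12.4 to 17.2% in the MEF-2 lines (median 15.6%), so the families did not overlap. The difference was 4.72 points (adjusted p = 0.000602). The promoter window of 13 CpGs ran from 14.5 to 20.1% in MEF-1 (median 16.9%) and from 3.31 to 18.9% in MEF-2 (median 11.7%), and its difference of 6.00 points missed the threshold (adjusted p = 0.0733), with 7.32 points and a call without MEF-2 line 7 (0.0225) and adjusted p-values of 0.0221 to 0.189 over the alternatives. A dense block of 101 CpGs at the transcript starts (block 1, chr4:115056816-115058765) stood at 11.6% ± 1.37 and 9.08% ± 2.25 (SD, n = 7 each). The RefSeq promoter window at the first start, chr4:115056176-115056475, held 11 CpGs at a minimum of 5 reads, whose joint level was not computed. Only 2 CpGs of that window had 10 reads in every library. These 2 were instead high in MEF-1, at 67.9 to 100% (parental 79.3%), and ran from 1.82 to 64.4% in MEF-2 (parental 34.1%). Both were called as single CpGs in Tal1, with 70.9% ± 22.4 against 10.9% ± 10.4 at chr4:115056249 (adjusted p = 0.00122) and 99.3% ± 1.89 against 42.9% ± 33.2 at chr4:115056279 (adjusted p = 0.00348, SD, n = 7 each), but a pair of sites was not tested as a region. Block 2, an intron run of 13 CpGs near the last start, stood at 39.3% ± 6.77 and 32.6% ± 7.16 (SD, n = 7 each) and was not called. Among the blocks, the widest gap of the gene lay in an intron at chr4:115059842-115060181 (block 3, 13 CpGs), with 54.0 to 65.0% in MEF-1, 34.1 to 51.0% in MEF-2, no overlap and a difference of 18.8 points (adjusted p = 0.000492).

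Within that intron block single CpGs pointed in opposite directions. The CpG at chr4:115059956, the largest difference of Tal1, was methylated in 4.15% ± 5.63 of reads in MEF-1 against 91.6% ± 10.1 in MEF-2 (SD, n = 7 each), while the CpG at chr4:115059981 stood at 97.3% ± 2.68 and 13.4% ± 18.6. The CpG at chr4:115060089 stood at 93.1% and 8.44%, so the level of the block is a sum over sites that do not move together. The parental libraries showed the same order at the first site, with 5.71% in MEF-1 (95% interval 1.58 to 18.6%) and 81.3% in MEF-2 (64.7 to 91.1%). By SD, the measure of spread used for the blocks, the lines spread most in block 5 (7 CpGs, chr4:115064510-115065251), which ran from 16.1 to 42.9% in MEF-1 and from 22.2 to 40.7% in MEF-2 and was not called (adjusted p = 0.956).

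Gata2 (chr6:88193891-88207032, plus strand), a zinc finger factor of stem and progenitor cells, was higher in MEF-2, at 37 of its 44 called CpGs and in all 5 of its called blocks. It had 44 of 213 CpGs called (20.7%, against 20.2% of the table) and 5 of 9 blocks (55.6%, against 48.6% of all blocks). Its body of 204 CpGs stood at 38.1 to 45.4% in the MEF-1 lines (median 43.7%) and at 45.9 to 55.0% in the MEF-2 lines (median 48.6%), a difference of -6.49 points with no overlap (adjusted p = 0.0053). The 9 promoter CpGs ran from 75.8 to 83.2% in MEF-1 (median 77.7%) and from 80.5 to 86.7% in MEF-2 (median 83.6%), so most reads upstream of the gene were methylated in both families. The promoter difference of -5.51 points was called (adjusted p = 0.00536). It was -0.61 points over the 24 CpGs with at least 5 reads (adjusted p = 0.816), and without MEF-1 lines 1, 4 and 5 the call was lost (-4.39 points, adjusted p = 0.064). Of the 9 CpGs 2 were called, 1 in each direction. The one higher in MEF-2, chr6:88193114, had 26 of 414 reads methylated in the MEF-1 lines and 429 of 451 in the MEF-2 lines. Leaving out the reads of this CpG reverses the order of the families in the window, so the direction of the promoter call rests on this CpG. The same holds for block 1, which has the same 9 CpGs and is among the called blocks. The window without this CpG was not tested for a difference.

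The largest differences of Gata2 lay towards its end. Block 8 (chr6:88204285-88204626, 12 CpGs in intron and exon) stood at 51.3 to 72.9% in MEF-1 (median 59.1%) and at 71.6 to 86.3% in MEF-2 (median 83.0%), a difference of -20.3 points in which the families overlapped by a single MEF-1 value (adjusted p = 0.000457). Block 9 next to it stood at 75.9% ± 4.42 and 91.9% ± 2.46 (SD, n = 7 each), without overlap. A larger block in an early intron (block 3, chr6:88195554-88196871, 52 CpGs) ran from 40.6 to 57.7% in MEF-1 and from 58.8 to 72.6% in MEF-2, a difference of -15.2 points (adjusted p = 0.0025). By contrast, the dense block of 77 CpGs after the second start (block 5, chr6:88198745-88200141) stood at 18.5% ± 3.17 and 17.7% ± 4.83 (SD, n = 7 each) and was not called (adjusted p = 0.772), 3 CpGs upstream of that start (block 4) stood at 3.29% ± 2.58 and 3.74% ± 4.46, and 9 intron CpGs at chr6:88203181-88203389 stood under 4.1% in every clonal line. The spread in MEF-2 was largest in block 2 (57.2 to 74.3%), and the spread in MEF-1 in block 8. The CpG with the largest difference, chr6:88193114 in the promoter window, was methylated in 6.15% ± 2.55 of reads in MEF-1 against 95.3% ± 2.70 in MEF-2 (SD, n = 7 each), with 9.86% and 96.0% in the parental libraries.

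Cd34 (chr1:194938819-194961279, plus strand) had 14 CpGs in the table and none of them in its promoter window. Its body ran from 75.5 to 86.2% in the MEF-1 lines (median 78.1%) and from 65.7 to 82.6% in the MEF-2 lines (median 72.5%). The difference of 7.25 points was called (adjusted p = 0.0316), but the call was lost without any 1 of MEF-1 lines 1, 2 and 7 or MEF-2 lines 1, 2 and 5 (adjusted p of up to 0.0619) and without MEF-1 lines 1, 4 and 5 together (0.108). Block 1 (chr1:194939486-194939667, 3 CpGs shortly after the start) stood at 91.5 to 100% in MEF-1 and 71.9 to 96.3% in MEF-2, a difference of 15.5 points (adjusted p = 0.000853), and it spread more than block 2 in both families. Outside the blocks, the called CpG with the largest difference of the gene, chr1:194950963 in a coding exon, averaged 10.9% ± 13.7 in MEF-1 against 50.5% ± 28.4 in MEF-2 (SD, n = 7 each), so the lines of MEF-2 covered most of the scale (adjusted p = 0.0369). This call was lost without any 1 of 10 lines (adjusted p of up to 0.0746), every line but MEF-1 line 1 and MEF-2 lines 1, 5 and 6, and without MEF-1 lines 1, 4 and 5 together (0.0691).

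A lower minimum of 5 reads, one of the alternatives, brought 6 CpGs of the Cd34 promoter window into view, with 33 to 104 reads per library. They stood at 54.2 to 82.6% in the MEF-1 lines and 3.45 to 28.1% in the MEF-2 lines, with 63.6% and 10.5% in the parental libraries. The difference of 55.0 points was the largest of the member promoters at that minimum (adjusted p = 2.78e-05), and it rests on few reads at few sites.

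Spi1 (chr2:91082390-91115756, plus strand), the gene of PU.1, also had none of its 92 CpGs in the promoter window, and 2 that appeared there at a minimum of 5 reads were too few to be tested as a region. Its body stood at 41.7 to 46.0% in the MEF-1 lines (median 43.3%) and at 37.0 to 43.3% in the MEF-2 lines (median 40.8%). All 14 clonal lines lay under their own parental library, which stood at 48.5% in MEF-1 (95% interval 46.7 to 50.2%) and 45.9% in MEF-2 (44.2 to 47.6%), a pattern of 1.04% of all bodies. The family difference of 3.28 points was called (adjusted p = 0.0217), and the call was lost at a minimum of 20 reads (2.85 points, 0.0789) and without MEF-1 lines 1, 4 and 5 (3.53 points, 0.0815). In limma, on the mean of the CpG levels, the difference itself was only 0.73 points (0.509).

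This small difference sums blocks that went opposite ways. Block 7 (chr2:91101045-91101111, 4 intron CpGs, the first of the printed stretches) stood at 26.6 to 44.0% in MEF-1 (median 36.2%) and at 0 to 11.1% in MEF-2 (median 1.14%), with no overlap. The difference was 32.6 points (adjusted p = 5.06e-05). The MEF-2 line at 0 had 112 reads, which allows up to 2.68%. Block 8, downstream of it, stood at 4.65% ± 1.77 and 5.24% ± 4.32 (SD, n = 7 each) and was not called. Block 9 (chr2:91112638-91112864, 4 intron CpGs) was again higher in MEF-1, with 23.3 to 41.9% against 7.00 to 26.2% and a difference of 20.3 points (adjusted p = 0.0029). Block 10 (chr2:91113095-91113274, 6 CpGs at the border of a coding exon) reversed this order, with 62.0 to 83.1% in MEF-1 (median 67.3%), 90.6 to 98.9% in MEF-2 (median 96.6%) and a difference of -27.5 points without overlap (adjusted p = 9.55e-06). Its CpG chr2:91113122 had the largest difference of the gene, with 17.7% ± 20.1 in MEF-1 against 97.8% ± 3.10 in MEF-2 (SD, n = 7 each).

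The starts of the shorter Spi1 transcripts were methylated in both families. The 10 CpGs of block 5 stood at 76.1% ± 4.87 in MEF-1 and 82.3% ± 4.72 in MEF-2, and the 15 CpGs of block 6 at 72.6% ± 4.52 and 74.2% ± 6.46 (SD, n = 7 each), and neither was called. Block 5 (adjusted p = 0.0917) was called without MEF-1 line 7 or without MEF-2 line 7, with an adjusted p down to 0.0281. The last exon carried the opposite state, since the 24 CpGs of block 11, a dense run of coding and UTR sites, stood between 0.987 and 3.99% in all 14 clonal lines. The spread was largest in block 4 for MEF-1 (61.8 to 84.0%, 3 CpGs) and in block 3 for MEF-2 (53.6 to 94.5%, 5 CpGs). Block 4 was called with a difference of 10.6 points (adjusted p = 0.024), and the call was lost without MEF-1 line 1 (0.0553) and without MEF-1 lines 1, 4 and 5 (0.183). In MEF-1 line 6 and MEF-2 line 3, whose depth over Spi1 was low, the body level lay inside the range of the other lines of the family, and the body was called without either line. In the 4 other cases of low depth the line was at the edge of its family, as the lowest MEF-1 body of Ikzf1 (line 6, 46.7%) and of Vav1 (line 1, 52.7%), the highest MEF-1 body of Cd34 (line 7, 86.2%) and the highest MEF-2 body of Gata3 (line 3, 35.3%). Without that line the difference was 8.22 points for Ikzf1, 1.21 for Vav1, 6.08 for Cd34, where the call was lost, and 20.3 points for Gata3.

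**Figure D3:**
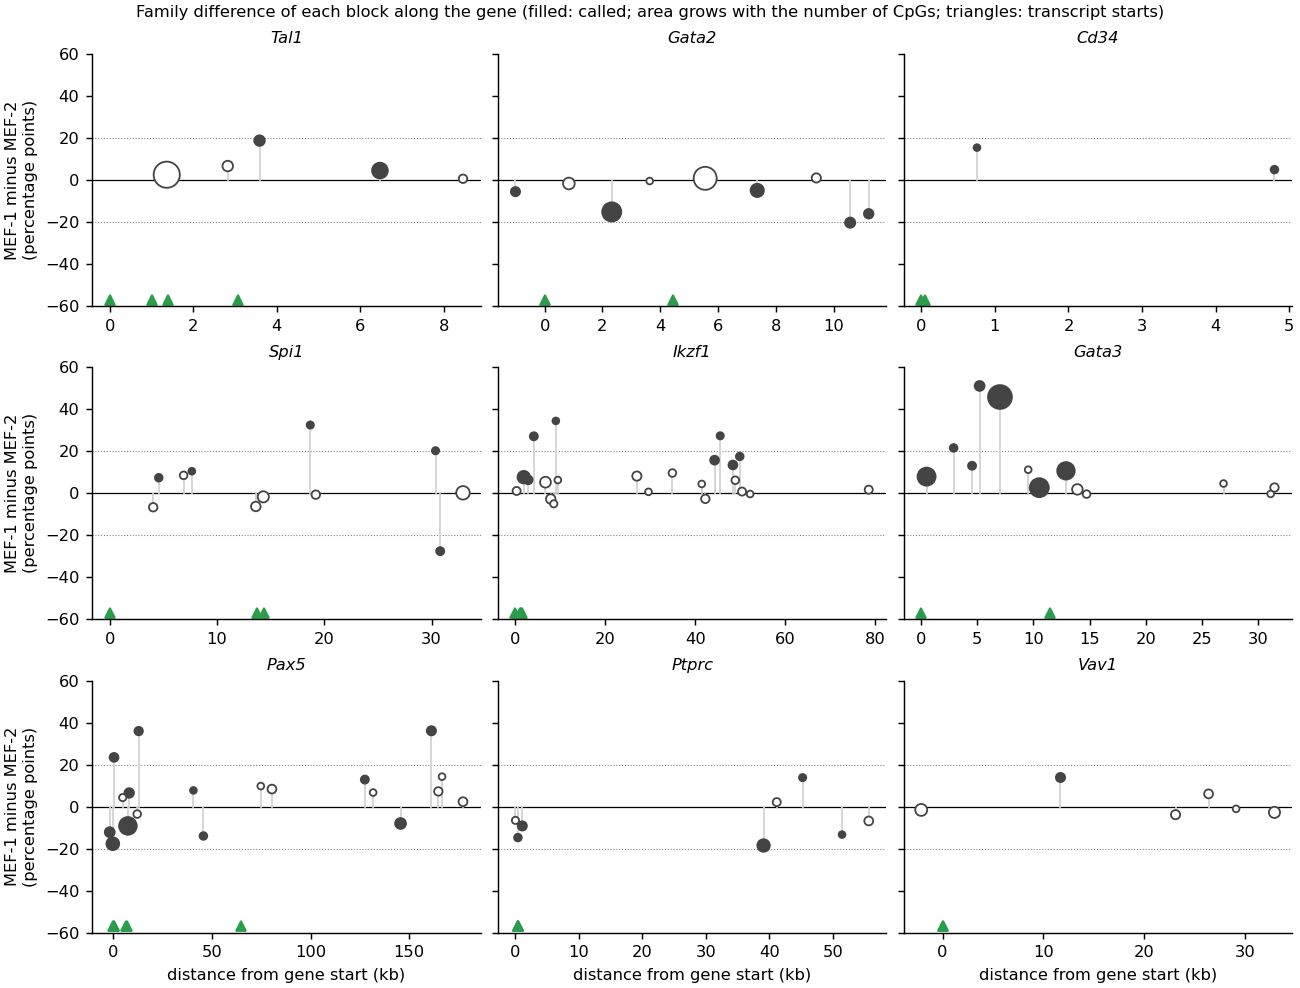
Difference between families (MEF-1 mean minus MEF-2 mean, percentage points) of each block against its distance from the gene start in kb, in 1 panel per gene. Filled points are called blocks, point area grows with the number of CpGs, and triangles mark starts of protein-coding transcripts. Called Gata2 blocks lie below 0, called Ikzf1 and Gata3 blocks above it, and Spi1 and Pax5 have called blocks on both sides.

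Ikzf1 (chr11:11685003-11772926, plus strand) had the largest share of CpGs of middle level among the 9 genes. In the parental libraries 71.3% (MEF-1) and 65.2% (MEF-2) of its CpGs stood between 10 and 90%, against 31.2 and 35.7% of the whole table. The 11 promoter CpGs ran from 35.5 to 55.0% in the MEF-1 lines (median 42.0%) and from 31.4 to 52.2% in the MEF-2 lines (median 36.0%), with a difference of 5.52 points that missed the threshold (adjusted p = 0.342, 0.0391 to 0.532 over the alternatives). The body stood at 46.7 to 55.3% in MEF-1 (median 51.9%) and at 42.0 to 47.5% in MEF-2 (median 44.1%), a difference of 7.43 points (adjusted p = 0.000492). In MEF-2, 0 of 7 lines reached the parental body level of 49.2%. Of 22 blocks of Ikzf1 8 were called (36.4%, against 48.6% of all blocks), all 8 higher in MEF-1. Single CpGs were less one-sided. Of 164 CpGs 49 were called (29.9%, against 20.2% of the table), 29 higher in MEF-1 and 20 higher in MEF-2.

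Block 8 (chr11:11693937-11694023, the 3 intron CpGs of the printed stretch) ran from 68.4 to 92.3% in MEF-1 (median 86.9%) and from 34.2 to 64.3% in MEF-2 (median 50.8%), and its difference of 34.5 points came without overlap (adjusted p = 0.000336). Blocks 4 and 16 were also more than 20 points apart. Block 4 (chr11:11688877-11689304, 6 intron CpGs) stood at 54.3% ± 7.91 and 27.1% ± 9.10, and block 16 (chr11:11730314-11730754, 4 intron CpGs) at 43.8% ± 12.5 and 16.4% ± 12.6 (SD, n = 7 each), with overlap between families in each. The adjusted p was 0.00054 for block 4 and 0.0138 for block 16, where the call was lost without MEF-1 lines 1, 4 and 5 (23.5 points, adjusted p = 0.0807). Block 4 holds chr11:11689033, the CpG with the largest difference of the gene, at 97.5% ± 1.66 in MEF-1 against 1.10% ± 0.779 in MEF-2 (SD, n = 7 each). An upstream CpG at chr11:11684835 was nearly as far apart, at 97.6% and 5.41%. The lines spread most in block 11 (chr11:11714540-11714637, 3 CpGs), from 14.3 to 58.2% in MEF-1 and from 15.6 to 58.5% in MEF-2, with nearly equal family means of 33.2 and 32.5%. Block 2 (20 CpGs, mostly intronic), right after a cluster of further transcript starts, ran from 35.3 to 45.2% in MEF-1 and from 23.7 to 39.7% in MEF-2 and was called with a difference of 7.74 points (adjusted p = 0.031). That call was lost without any 1 of MEF-1 lines 3, 4 and 7 or MEF-2 lines 1, 3 and 4 (adjusted p of up to 0.0644) and without MEF-1 lines 1, 4 and 5 together (0.147). Right after the gene start, where the processed transcript Gm11999 overlaps, 6 CpGs (block 1) stood at 7.16% ± 5.93 and 6.00% ± 4.79 (SD, n = 7 each).

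Gata3 (chr2:9857078-9890034, minus strand), known in T cells and also in epithelia, differed most. Its 258 body CpGs stood at 50.0 to 54.7% in the MEF-1 lines (median 52.5%) and at 30.3 to 35.3% in the MEF-2 lines (median 32.1%), far from overlapping, and the parental libraries stood at 51.6 and 32.4%. The difference was 19.8 points (adjusted p = 5.86e-08) and lay between 19.4 and 20.3 points when any 1 line was left out. The promoter window of 27 CpGs was low in both families, with 11.8 to 15.7% in MEF-1 (median 13.9%) and 5.80 to 11.7% in MEF-2 (median 6.41%), a difference of 6.33 points without overlap (adjusted p = 0.00071).

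The body difference was concentrated between the annotated gene start and the second start, 11.43 kb downstream. The RefSeq promoter window of Gata3 (chr2:9878551-9878850), without CpGs in the table, lies at this second start. Blocks 1 to 5 lie upstream of it. Blocks 8 to 13, downstream of it, differed by -0.34 to 10.75 points. Block 5 (chr2:9882185-9883851, 83 CpGs, all intronic in Gata3) ran from 62.2 to 74.3% in MEF-1 (median 66.6%) and from 18.5 to 29.2% in MEF-2 (median 19.7%), a difference of 45.9 points (adjusted p = 1.07e-07). Its parental libraries stood at 68.8% (95% interval 66.9 to 70.7%) and 26.9%, and 58 of its CpGs were called, 57 of them higher in MEF-1. Block 4 (chr2:9884586-9885076, 11 CpGs) was further apart still, with 71.4 to 85.4% against 22.1 to 34.8% and a difference of 51.2 points (adjusted p = 1.96e-07). Block 2 (chr2:9887008-9887283, 5 CpGs) stood at 53.7% ± 7.98 in MEF-1 against 32.0% ± 15.1 in MEF-2 (SD, n = 7 each), its MEF-2 lines being the most spread of the gene in that family (adjusted p = 0.0171, and 0.0711 without MEF-1 lines 1, 4 and 5). The protein-coding gene 9230102O04Rik, on the same strand, overlaps blocks 1 to 5 and has its start at block 1, and 4930412O13Rik overlaps block 5, so the CpGs of these blocks belong to more than 1 annotated gene.

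On both sides of this stretch the families were closer. The 46 CpGs of block 1, at the annotated start of Gata3 and that of 9230102O04Rik, stood at 13.8% ± 1.22 in MEF-1 and 5.80% ± 1.92 in MEF-2, and the 51 CpGs of block 7, just upstream of the second start, at 4.68% ± 1.41 and 1.94% ± 0.855 (SD, n = 7 each). Both differences were called (adjusted p = 7.11e-05 and 0.00244), at levels that stayed low in both families. Block 8, with 43 CpGs in coding sequence and intron after the second start, where the antisense gene Gm13256 overlaps, was high instead, with 88.2 to 91.8% in MEF-1 and 70.2 to 84.5% in MEF-2. MEF-1 lines spread most in block 6 (3 CpGs, 44.3 to 69.7%). The CpG with the largest difference was chr2:9883829 in block 5, at 99.3% ± 1.80 and 2.20% ± 3.79 (SD, n = 7 each), and the parental libraries had 100% of 27 reads and 9.68% of 31 reads methylated there.

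**Figure D4:**
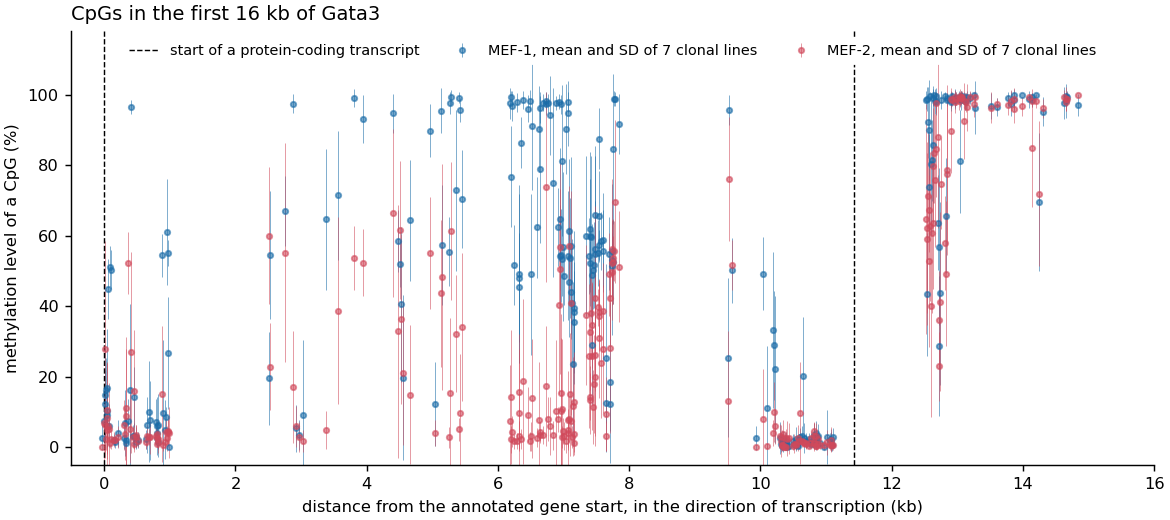
Methylation level (percent) of single CpGs in the first 16 kb of Gata3 against the distance from the annotated gene start in kb, as mean and SD of the 7 clonal lines of each family. Dashed lines mark starts of protein-coding transcripts. Between them lies a run of CpGs near 100% in MEF-1 and near 0% in MEF-2, while CpGs close to the starts are low in both families.

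Pax5 (chr4:44524757-44710487, minus strand), which commits progenitors to the B lineage, had called blocks in both directions, 6 higher in MEF-1 and 5 higher in MEF-2. These were 11 of its 19 blocks (57.9%, against 48.6% of all blocks). The 39 promoter CpGs stood at 12.7 to 22.0% in the MEF-1 lines (median 18.1%) and at 21.0 to 31.4% in the MEF-2 lines (median 24.5%), a difference of -8.21 points (adjusted p = 0.00215). This window sums opposite differences, since it also includes block 3, described below, which was higher in MEF-1. Of its 9 called CpGs 2 were higher in MEF-1. Block 2, the printed stretch of 21 CpGs upstream of the start (chr4:44710677-44710940), ran from 4.83 to 11.2% in MEF-1 and from 16.5 to 34.8% in MEF-2, a difference of -17.6 points without overlap (adjusted p = 0.000222). The dense block of 44 CpGs at a further transcript start (block 5, chr4:44702796-44703504) showed the same order, at 4.20 to 10.1% in the MEF-1 lines and 8.87 to 24.9% in the MEF-2 lines, with a difference of -9.13 points (adjusted p = 0.00122). Block 6, the next 10 CpGs into the intron, was the other way round, at 26.2% ± 2.80 and 19.7% ± 3.06 (SD, n = 7 each), a difference of 6.55 points. Its adjusted p was 0.0071.

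The largest Pax5 differences lay in blocks higher in MEF-1. Block 3, in the coding exon and intron right after the start (chr4:44709989-44710385, 8 CpGs), stood at 49.0 to 66.8% in MEF-1 and 19.2 to 43.9% in MEF-2, 23.5 points apart (adjusted p = 0.000621). Block 8 (chr4:44697558-44697834, 7 CpGs in a coding exon and intron) stood at 58.1 to 77.2% and 22.0 to 45.9%, 36.0 points apart (adjusted p = 5.24e-05), and block 16 (chr4:44549057-44549467, 9 intron CpGs) at 47.2 to 62.0% and 13.8 to 30.4%, 36.2 points apart (adjusted p = 6.39e-06). None of these 3 blocks had overlapping families. The CpG with the largest difference, chr4:44710385, lies in a coding exon close to the gene start, between the printed stretch and the body, at 94.1% ± 4.65 in MEF-1 against 4.21% ± 4.49 in MEF-2 (SD, n = 7 each). Summed over the 149 CpGs of the body, the families stood at 27.8 to 32.6% and 24.7 to 30.1%, and the difference of 2.60 points missed the threshold (adjusted p = 0.0568). It passed without MEF-1 line 1 (2.89 points, adjusted p = 0.0496) and without MEF-2 line 2 (3.12 points, 0.022), and the adjusted p ran from 0.00145 to 0.105 over the alternatives. The spread was largest in block 14 (chr4:44578804-44578838, 3 CpGs), from 23.2 to 60.5% in MEF-1 and from 4.48 to 53.5% in MEF-2.

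Ptprc (chr1:138062861-138175708, minus strand) was higher in MEF-2 at 13 of 18 called CpGs and in 4 of 5 called blocks. It had 18 of 63 CpGs called (28.6%, against 20.2% of the table) and 5 of 8 blocks (62.5%, against 48.6% of all blocks). Its body of 55 CpGs stood at 45.7 to 56.4% in the MEF-1 lines (median 48.8%) and at 53.1 to 65.7% in the MEF-2 lines (median 60.6%), a difference of -10.1 points (adjusted p = 0.00626). The promoter window of 8 CpGs spread widely, from 51.1 to 79.8% in MEF-1 (median 66.4%) and from 62.1 to 84.3% in MEF-2 (median 77.3%). The promoter difference of -10.2 points missed the threshold (adjusted p = 0.0876) and passed it without MEF-1 line 1 (0.0394), without MEF-2 line 6 (0.0276) and in limma (0.00886). Of the 3 blocks around the starts, block 1 held 4 CpGs that ran from 48.4 to 84.5% in MEF-1, the widest block of the gene in that family, and was not called. Block 2, which holds transcript starts, stood at 65.6% ± 7.75 and 80.3% ± 5.89, and block 3, just inside the gene, at 81.8% ± 3.16 and 90.9% ± 1.81 without overlap (SD, n = 7 each). Both were called, at -14.7 points (adjusted p = 0.00484) and -9.15 points (adjusted p = 0.000155). The largest block, 20 intron CpGs at chr1:138136292-138136929 (block 4), ran from 16.3 to 36.6% in MEF-1 and from 30.0 to 52.7% in MEF-2, a difference of -18.5 points (adjusted p = 0.0058), which was not called without MEF-1 lines 1, 4 and 5 (-16.0 points, 0.0636). It ends with chr1:138136929, the CpG with the largest difference of the gene, at 12.2% ± 15.8 and 89.9% ± 4.85 (SD, n = 7 each). MEF-2 lines had their largest SD in block 8 (14.5 points, 41.7 to 74.5%) and their widest range in block 1 (50.0 to 88.1%).

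Vav1 (chr17:57279100-57328031, plus strand) had the smallest body difference of the 9 genes, with 52.7 to 62.2% in the MEF-1 lines (median 56.3%) and 50.2 to 61.7% in the MEF-2 lines (median 56.6%). The fitted difference of 0.53 points (adjusted p = 0.811) lay between -0.86 and 2.32 points over the alternatives, and turned below 0 without MEF-1 line 5 (-0.37 points) or MEF-2 line 2 (-0.47 points). The promoter window held 3 CpGs with 45 to 76 reads per library, at 5.56 to 27.7% in MEF-1 and 12.9 to 36.8% in MEF-2 (adjusted p = 0.19), and its difference of -7.78 points became 7.92 points over the 9 CpGs with at least 5 reads (adjusted p = 0.0536). No direction can be given for it. Of the 49 CpGs of Vav1 16 were called (32.65%, against 20.2% of the table), 7 higher in MEF-1 and 9 higher in MEF-2. Block 2 (chr17:57290542-57290916, 9 intron CpGs) was the only called block of 6 (16.7%, against 48.6% of all blocks). It stood at 86.6 to 97.7% in MEF-1 and 65.5 to 86.9% in MEF-2, with a difference of 14.1 points (adjusted p = 0.00359). The spread was largest in block 4 for MEF-1 (45.0 to 64.3%) and in block 5 for MEF-2 (4.89 to 34.2%). The CpG chr17:57311886 in a coding exon stood at 9.12% ± 4.63 and 85.1% ± 16.8 (SD, n = 7 each), the largest difference of the gene.

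The spread between the clonal lines of a family was set against read-counting noise. A chi-square test of equal levels over the 7 lines called 487 of 739 tested member CpGs variable in MEF-1 (65.9%, against 62.2% of the table) and 596 of 749 in MEF-2 (79.6%, against 71.8%). With expected counts of at least 5 in place of 1, the MEF-1 share was 69.0%, against 69.2% of the table, so the higher member share in MEF-1 was not seen at that minimum. The MEF-2 share was 88.5%, against 83.8%. The test takes reads as independent molecules, which they are not where PCR duplicates remain, and with 1 library per line it cannot tell a line from its library. In MEF-2 the share was highest in Pax5, where 127 of 136 CpGs were variable (93.4%), and in Tal1 (87.4%), while in MEF-1 Pax5 gave 62.9%. Ptprc had the opposite order, with 80.4% in MEF-1 against 63.0% in MEF-2. With fewer lines in the test, among MEF-1 lines 2, 3, 6 and 7 alone, 314 of 724 member CpGs were variable (43.4%, against 41.9% of the table).

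Block levels spread more in MEF-2 than in MEF-1 in 65 of the 95 blocks (68.4%, against 60.7% of all blocks) and less in 30. Over the blocks, the SD of 7 lines had a median of 5.35 points for the MEF-1 family and 5.95 points for the MEF-2 family, above the medians of 3.89 and 4.76 points over all blocks. Apart from Cd34 with 2 of 2, Pax5 gave the most one-sided count, with 17 of 19 blocks more spread in MEF-2. Gata3 had 10 of 13, whereas Ikzf1 was even at 11 and 11. Gata2 went slightly the other way, with 5 of 9 blocks more spread in MEF-1. These counts were not tested, and they were not computed without MEF-1 lines 1, 4 and 5. Pairs of those 3 lines differed by 4.79 to 5.50 points on average over the blocks. The other MEF-1 pairs differed by 5.30 to 7.76 points and the MEF-2 pairs by 6.50 to 9.03 points.

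Against its own parental library, a MEF-1 clonal line differed at 4.70% ± 2.75 of member CpGs and a MEF-2 clonal line at 9.18% ± 1.92 (SD, n = 7 each), as called at single CpGs by Fisher's exact test with adjustment within each line. Each such call compares the reads of 1 clonal and 1 parental library, covers counting error only and has no replicate. The shares over the whole table were 3.46% and 6.57%. MEF-1 lines 1, 4 and 5 stood at 2.02, 1.85 and 1.77%, and the other MEF-1 lines between 5.89 and 8.39%. Vav1 (16.3%), Ikzf1 (14.7%) and Cd34 (14.3%) had the highest shares in MEF-2, and Cd34 (12.2%), Ptprc (9.07%) and Ikzf1 (8.19%) in MEF-1. The highest share of a line over Pax5 was 21.3% in MEF-2 line 4. At the other end, Gata3 gave 2.91% in MEF-1 and Spi1 4.19% in MEF-2. The member share in MEF-2 was 6.53, 9.18 and 14.8% at minimums of 5, 10 and 20 reads. At 5 and 20 reads the share over the whole table was not computed. Median reads in the MEF-2 lines were 37 to 41 at Vav1, Ikzf1, Cd34 and Ptprc, and 24 to 30 at the other genes. The part of depth in this order was not tested. The Cd34 shares rest on 14 CpGs, with single lines from 0 to 28.6% in each family.

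**Figure D5:**
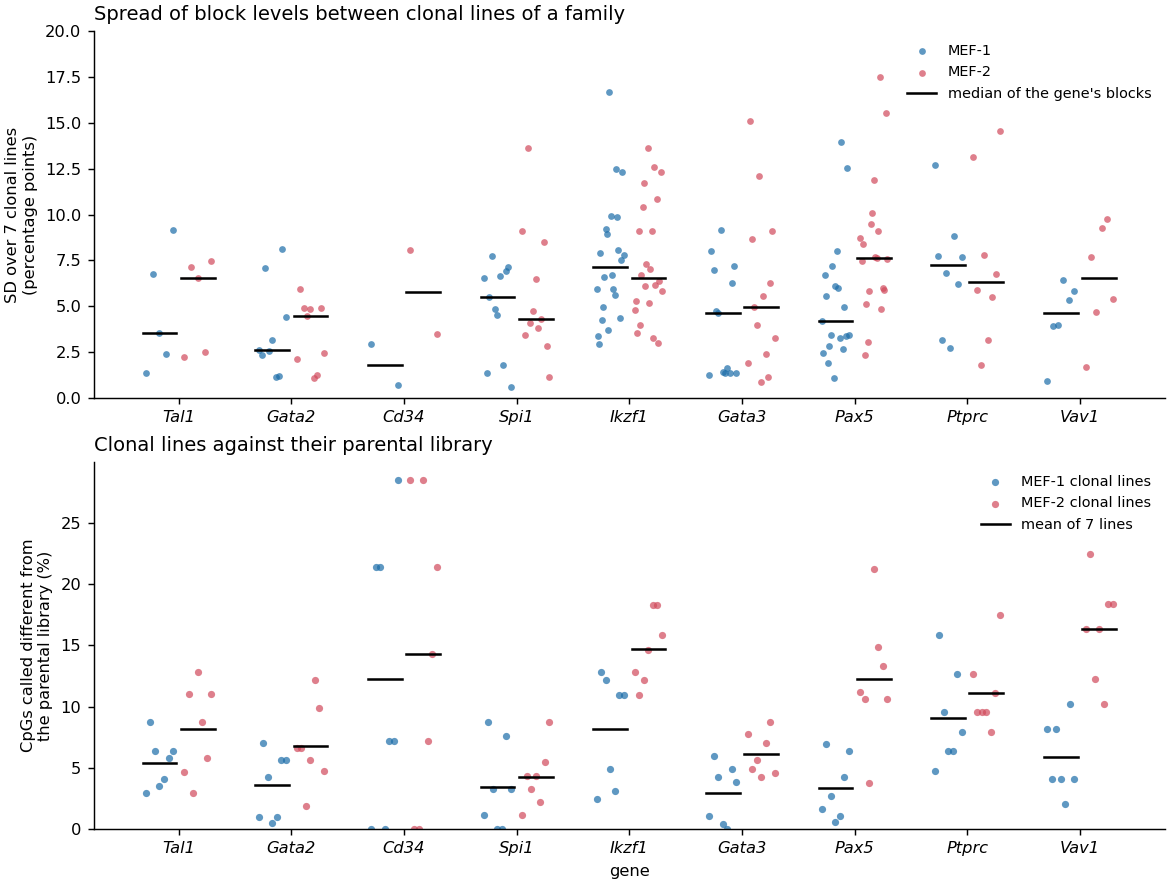
Upper panel, SD of the block level over the 7 clonal lines of a family (percentage points) for each block, by gene, with the median as a bar. Lower panel, share of the CpGs of each gene (percent) that differed from the parental library in each clonal line, with the mean of 7 lines as a bar. In Pax5 the SD is larger in MEF-2 in 17 of 19 blocks, and MEF-2 line 4 stands at 21.3% in the lower panel.

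CpGs of middle level and low fidelity took a larger share of these genes than of the table, a difference given here without a test. The deposited fidelity score, the share of the 14 clonal lines whose level lies in the lowest, middle or highest band, averaged 0.771 over the 1240 CpGs, 0.833 over the table and 0.856 over CpGs of protein-coding genes. It was under 0.75 at 42.6% of member CpGs and at 28.9% of the table. Ikzf1 had the lowest mean (0.658), then Ptprc (0.711) and Vav1 (0.730), and Tal1 the highest (0.838). The deposited neighbour similarity score averaged 0.574 over the members and 0.658 over the table. This second score counts how often the nearest measured site of a line has a similar level. In the parental libraries 44.5% (MEF-1) and 48.5% (MEF-2) of the member sites stood between 10 and 90%.

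CpG density divided the members. The 405 dense CpGs, with at least 10 other CpGs within 100 bp, averaged 26.3% in the MEF-1 lines and 22.9% in the MEF-2 lines, against 14.9 and 14.6% for dense CpGs of the table, and 23.2% of them were called (8.19% of the table's). Of the 94 called dense CpGs, 51 lay in Gata3 and 25 in Gata2. Pax5 had 10 of 66 dense CpGs called (15.2%), Tal1 8 of 86 (9.30%), Spi1 0 of 24 and Ikzf1 0 of 3. The 835 sparser CpGs averaged 51.0 and 45.9%, with 28.4% called (24.5% of the table's). Dense CpGs of Gata3 stood at 48.9% ± 1.98 in MEF-1 and 29.9% ± 3.87 in MEF-2, those of Gata2 at 31.7% ± 3.98 and 38.0% ± 4.13, and those of Pax5 at 7.29% ± 1.50 and 17.7% ± 2.28 (SD, n = 7 each). Tal1 (7.30 and 6.42%) and Spi1 (2.46 and 1.98%) kept their dense CpGs low in both families. In Pax5 the sparser CpGs had the opposite order to the dense ones, with 40.3% in MEF-1 and 32.6% in MEF-2.

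A wider list of 86 other blood lineage genes was read in the same way. Of 51 promoters tested, 26 were called (51.0%, against 43.2% of all promoters), 16 higher in MEF-1 and 10 higher in MEF-2, where all promoters gave 3338 and 2008. Their median difference was 0.59 points, against 0.49 points over all promoters, and their median level of 32.4% (quartiles 13.4 and 58.3%) lay above the 13.0% of all promoters. Of 66 bodies 42 were called (63.6%, against 47.8% of all bodies), 30 higher in MEF-1 and 12 in MEF-2, where all bodies gave 4198 and 2430, with a median difference of 3.54 points against 0.94 points over all bodies. Among 30 fibroblast genes, 15 promoters were tested, with a median level of 3.48% (quartiles 1.50 and 54.1%). Of these, 7 were called (46.7%, against 43.2% of all promoters), all 7 higher in MEF-1, and the median difference of the 15 was 1.26 points, against 0.49 points over all promoters. Of 26 bodies 6 were called (23.1%, against 47.8% of all bodies), 2 higher in MEF-1 and 4 higher in MEF-2. The median difference of the 26 was 0.013 points, against 0.94 points over all bodies.

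The largest promoter differences of the wider list lay in Cbfa2t3, a corepressor of progenitors, Lcp2, an adaptor of T cell receptor signalling, and Laptm5, a lysosomal membrane protein of blood cells. Cbfa2t3 stood at 60.9% ± 3.74 in MEF-1 and 19.1% ± 6.46 in MEF-2 over 6 CpGs, Lcp2 at 54.0% ± 12.2 and 14.2% ± 8.12 over 3, and Laptm5 at 87.3% ± 15.9 and 65.8% ± 3.16 over 3 (SD, n = 7 each). In the other direction, Nfe2 and Klf1, both factors of red cell development, stood at -14.8 and -12.0 points, and the lymphoid factor Irf4 at -14.6 points. Adjusted p-values of these 6 promoters ran from 2.13e-06 (Cbfa2t3) to 0.0467 (Laptm5). Their values without single lines were not computed. At Laptm5 the families overlapped, with 64.0 to 100% in MEF-1 and 61.4 to 70.7% in MEF-2.

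For the 3 member promoters whose level spanned more than 20 points over the 16 libraries, the most similar promoters were looked up among all 12389, by the mean absolute difference over the 16 libraries. Those nearest to Ikzf1 (span 23.6 points) were Barx1 (3.74 points), Gm38393 and Snurf (4.15 points each). The nearest to Ptprc (33.3 points) were Eddm3b (5.19), Dcun1d4 (5.74) and Wnt16 (5.85 points), and to Vav1 (31.3 points) Cpne9 (5.49), Manba (6.15) and Hmx1 (6.21 points). The distances amount to several points per library.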

How the data were processed

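The labels place the 16 libraries in 4 groups, MEF-1 and MEF-2 parental (1 library each) and MEF-1 and MEF-2 clonal (7 lines each). As the methods and the submitters' processing notes state, the authors captured chosen regions with probes, converted the DNA with bisulfite, trimmed reads with Trim Galore 0.6.0, aligned them to mm10 with Bismark, combined both strands of each CpG and used R 3.6.1. The sources name no step that removes PCR duplicates. The deposited values are unnormalised counts of methylated and unmethylated reads, in a table per library and in a series table restricted to CpGs that each of the 16 libraries covers with 10 or more reads, on 16 chromosomes. The series table also holds a deposited fidelity score and a neighbour similarity score per CpG, as the authors computed them. Its 2 further columns of values per sample (coverage and methylated percentage) were not used.

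The 9 member genes and the lists of other genes were chosen with earlier results of these data known. A level is the percentage of methylated among all reads. Families were compared by an F-test in a quasi-binomial logistic model (dispersion not below 1) for each CpG, block, promoter and body, with Benjamini-Hochberg adjustment over all features of the table and a threshold of 0.05. Equal levels over 7 lines were tested by Pearson's chi-square (expected counts of at least 1), and lines against the parental library by Fisher's exact test. Wilson 95% intervals of parental libraries, and limits from 3 counts at a level of 0, cover counting error only. limma 3.58.1 (R 4.3.3) on mean CpG levels, other read minimums, gaps, windows and left-out lines were alternatives. The quasi-binomial model and the chi-square test were tried on simulated counts of single CpGs, and Fisher's exact test on random tables. The text names, per gene, the promoter, the body, called blocks at least 20 points apart, the block with the largest SD in each family, the called CpG with the largest difference and blocks within 1000 bp of other transcript starts. From the list of other blood genes it names the 3 called promoters with the largest difference in each direction, and for promoters spanning at least 20 points the 3 closest promoters. Further blocks and CpGs named, and the printed sequences, were chosen after their values were seen. The calculations used Python 3.11.15, numpy 2.4.6, scipy 1.17.1, pandas 2.3.3, numba 0.67.0 and matplotlib 3.10.9. Annotation was GENCODE M21. Of the CpGs in the table, 1203574 lie at a CpG of GRCm38 and 113 do not.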

Additional observations from a re-analysis of the deposited data

Results flagged for a closer look

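Dixon's test was run on 82 family values, those of 16 promoters and bodies and of 25 blocks that had been picked as called with a difference of at least 20 points or as having the largest SD of a gene in a family. In 6 of them 1 line stood apart from the other 6 of its family, all in the picked blocks. Chance flags about 1 in 20 groups, a rate that does not hold for blocks picked by their spread. In Gata2 block 8, MEF-2 line 5 was the lowest MEF-2 line at 71.6%, with the next at 81.4%. In Spi1 block 7, MEF-2 line 1 was the highest MEF-2 line at 11.1%, with the next at 2.80%. Spi1 block 10 had such a line in each family, MEF-1 line 2 at 83.1% (next 70.7%) and MEF-2 line 7 at 90.6% (next 95.3%). In Gata3 block 6, MEF-2 line 7 stood at 69.5% and the next MEF-2 line at 48.7%. In Vav1 block 5, MEF-1 line 5 stood at 30.2% and the next MEF-1 line at 19.7%. The lines concerned differed from block to block, apart from MEF-2 line 7, which appeared in Spi1 block 10 and Gata3 block 6.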

How the results depend on the processing

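At a minimum of 5 reads the share of member CpGs that differed from the parental library was 6.53% in MEF-2, and the share over the table was not computed. A minimum of 20 reads gave 146 of 541 CpGs called between families (27.0%, against 23.2% of the table). It gave 253 of 390 variable CpGs in MEF-1 (64.9%, against 60.7%) and 299 of 389 in MEF-2 (76.9%, against 67.7%). At this minimum a clonal line differed from its parental library at 7.82% (MEF-1) and 14.8% (MEF-2) of the members. For these parental comparisons the share over the table was not computed at 20 reads. Without MEF-1 lines 1, 4 and 5, 233 CpGs, 31 blocks, 2 of 7 promoters and 6 of 9 bodies were called between families (14.1% of CpGs, 37.7% of blocks, 32.9% of promoters and 37.0% of bodies of the table), and 314 of 724 CpGs were variable in MEF-1 (43.4%, against 41.9%). Without these lines 6.82% ± 1.10 of member CpGs differed from the parental library in MEF-1, and the share over the table was not computed. With all 7 lines and expected counts of at least 5 the variable CpGs were 220 of 319 in MEF-1 (69.0%, against 69.2%) and 299 of 338 in MEF-2 (88.5%, against 83.8%). limma called 6 of 7 promoters (49.6% of all promoters). Leaving out 1 line at a time gave 294 to 323 CpGs, 44 to 51 blocks, 3 to 4 promoters and 6 to 7 bodies called (18.3 to 19.4% of CpGs, 45.5 to 47.4% of blocks, 40.4 to 42.2% of promoters and 44.6 to 46.2% of bodies of the table). The variable CpGs were then 424 to 451 in MEF-1 (58.4 to 61.6% of those tested, against 55.4 to 58.3% of the table). In MEF-2 they were 542 to 584 (without line 1, 74.3% of those tested, against 66.6% of the table). The Vav1 promoter difference reversed to 7.92 points at 5 reads. The Vav1 body difference reversed to -0.064 points at 20 reads, -0.37 without MEF-1 line 5, -0.47 without MEF-2 line 2 and -0.86 points in limma with or without the replicate block, and ran from -0.47 to 1.45 points over the left-out lines. With the line number as a replicate block, limma called 301 CpGs, 52 blocks, 4 promoters and 7 bodies, against 329, 50, 6 and 7 without it. Over the table it called 17.5, 46.9, 45.2 and 55.8% with the block and 19.6, 49.7, 49.6 and 58.2% without. The numbers do not pair the lines, since deviations of same-numbered lines correlated by -0.0043 to 0.0035. Of the differences of promoters and bodies recomputed, 268 kept direction and side of the threshold, 14 passed it newly, 13 lost it and 6 reversed, and the cause was not tested. Depth limits the reading of 3-CpG regions, of the Cd34 and Vav1 starts and of the annotated gene start of Spi1.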
